A study of Arabidopsis thaliana with 20 samples.

Results

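The comparison is that of small RNAs in flower buds of the exosome mutant cer7 with those of wild-type Arabidopsis thaliana, and it uses 8 of the 20 libraries of the series. The wild type is the accession Col-0 (WT, 3 libraries). The mutant is represented by 2 insertion alleles in the Col-0 background, cer7-gabi (3 libraries, replicates 1, 2 and 3) and cer7-sail (2 libraries, replicates 1 and 3), each of them a single insertion line. CER7 is the exosome core subunit RRP45B. Each library was made from the closed flower buds of 4 pooled plants, kept for 3 weeks in 12 h of light and then for 3 weeks in 16 h of light. The paper describes the replicates as grown on different dates in different growth chambers. Col-0 itself lacks a functional SOV, another 3′−5′ exoribonuclease, and both groups share this. The other 12 libraries of the series are from the mutants rst1 and ripr. They entered the low-count filter, the normalization and the estimate of the spread between libraries, but not the contrast of cer7 with WT.

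The exosome degrades RNA from its 3′ end, and in the cytosol it removes mRNAs and the fragments that remain after endonucleolytic cleavage. RNA fragments that escape degradation can be copied into double-stranded RNA by RNA-dependent RNA polymerases such as RDR6 and then be cut by Dicer-like enzymes into siRNAs of 21 and 22 nt. Transcripts cleaved under the guidance of a miRNA are a known source of such secondary siRNAs. The counts examined here are reads of these lengths per annotated gene, so they measure small RNAs that match a gene and not the level of its mRNA.

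The counts summed to between 203245 and 230727 per WT library and to between 305475 and 522464 per cer7 library. These totals cover 1 size class on genes and are not the depth of the libraries. CER7 itself does not check the labels, because it had 20.4, 4.78 and 0 CPM (counts relative to the normalized library total) in WT and 4.25 to 24.1 CPM in cer7 and was not tested. The 2 libraries cer7-gabi 1 and cer7-gabi 3 stood apart from the other cer7 libraries in their histone H4 small RNAs (given with that family), and counts without them are given where they lead a result. Small RNA counts do not mark a tissue, so the labelled tissue was not checked.

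Small RNAs were raised in cer7 for 510 of the 2916 genes that passed the filter on low counts (17.5%) and lower for 67 (2.3%). A call required an adjusted p-value below 0.01 in the quasi-likelihood test of edgeR, together with a log2 fold change beyond 1 in either direction. Over all tested genes the median log2 fold change was 0.07. Every cer7 library was above every WT library in 22.6% of the tested genes and below every WT library in 13.7%. This held for 493 of the raised genes (16.9% of those tested) and 58 of the lower genes (1.99%). Low WT counts bear on these numbers. Of the tested genes, 1108 had under 10 counts in every WT library and could enter the test mainly through the mutant libraries, and 413 of the raised genes and 0 of the lower genes were among them. Of the 1808 genes with at least 10 counts in a WT library, 97 were raised (5.37%). The share of a class that was raised among its tested members was in part set by this filter where WT counts were low, and the members with at least 10 WT counts are therefore given beside the main classes. Without cer7-gabi 1 and 3 there were 463 raised and 80 lower genes. The balance between the directions depended on scaling. With library size only, 411 genes were raised and 262 lower and the median of all genes was -0.23, whereas with scaling on the genes that were not called it was 0.25, with 600 raised and 18 lower.

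The raised genes differed widely in their level. The mean over the 5 cer7 libraries was under 100 CPM for 329 of them, between 100 and 1000 CPM for 153, between 1000 and 10000 CPM for 21, and 10000 CPM or more for 7. In 12 raised genes all 3 WT libraries had no count. Some identifiers cover the same reads: 24 of the 510 fell into 10 sets with identical counts in all 20 libraries, which left 496 distinct profiles. Most of these sets pair a gene with an unannotated identifier of the adjacent number, such as AT2G18160 and AT2G18162.

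A small number of genes held most of the additional small RNAs. The raised genes took 1.32, 1.29 and 1.38% of all counts in the WT libraries. In cer7-gabi 1, 2 and 3 they took 35.2, 40.3 and 40.1%, and in cer7-sail 1 and 3 they took 33.0 and 41.7%. These genes were chosen as higher in the same libraries, so the separation of the groups was fixed by that choice, and the values describe its size. Within the raised genes, 2 or 3 genes held 50% of the counts in each cer7 library and 28 to 37 genes held 90%, compared with 43 to 50 and 253 to 258 genes in WT. XTH9, a xyloglucan endotransglucosylase/hydrolase of the cell wall, had the largest share. The genes that were tested and not called took 69.1 to 73.2% of the counts in WT and 43.3 to 46.3% in cer7, and the lower genes took 17.4 to 20.2% and 5.19 to 8.77%. Shares of 1 library add up to a fixed total, so these falling shares cannot be told apart from the gain of the raised genes.

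**Figure D1:**
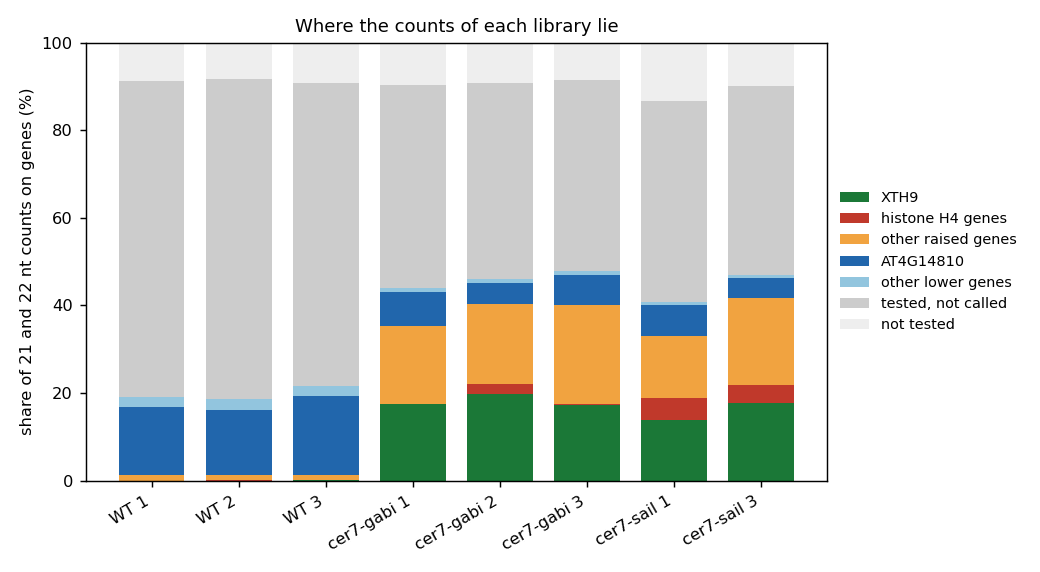
Share of all counts in each of the 3 WT and 5 cer7 libraries, in percent, taken by XTH9, the histone H4 genes, the other raised genes, AT4G14810, the other lower genes, and the genes not called or not tested. The raised genes took 1.29 to 1.38% in WT and 33.0 to 41.7% in cer7.

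The genes were then sorted into 56 families and functional classes by their annotation or locus. Among the classes with at least 4 tested members, every tested member was raised in the HD-ZIP III factors, the SPL factors and the histone H4 genes, beside a class of 4 genes set by annotation text alone (AP2/ERF or CRF). In the SPL factors and in 7 of the 8 H4 genes no WT library reached 10 counts. Most large families stayed near or below the share found over all genes, and no gene encoded in the chloroplast or the mitochondrion was raised.

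**Figure D2:**
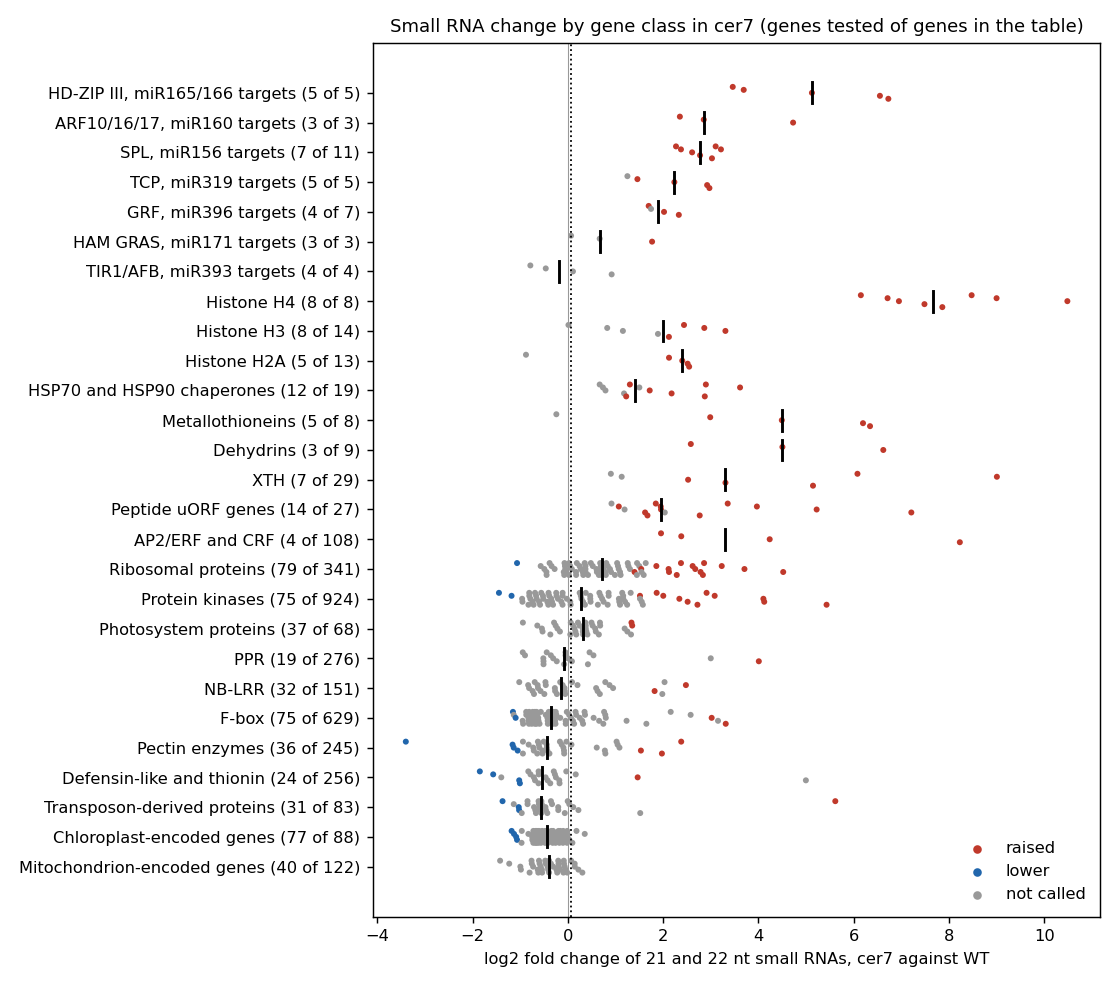
Log2 fold change of cer7 against WT for the tested members of selected gene classes, with 1 point per gene, raised genes in red, lower genes in blue and uncalled genes in grey. Black bars are class medians, which go from 7.67 for histone H4 to -0.56 for transposon-derived proteins, and the dotted line is the median of all tested genes, 0.07.

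Targets of miRNAs and tasiRNAs were raised in many families. Of 76 genes in 16 families listed as such targets, 51 were tested, 35 were raised and 0 were lower (3 at an unadjusted p below 0.05 in edgeR and 0 called by DESeq2), with a median log2 fold change of 2.29 beside 0.07 for all genes. Of the 27 targets with at least 10 counts in a WT library 17 were raised, and of the other 24 tested targets 18 were. Their joint share of the counts was 0.543 to 0.686% in WT and 2.09 to 2.28% in cer7. Without cer7-gabi 1 and 3, 33 of these genes were raised. The families differed strongly from each other, and the sequences of miRNAs and target sites are shown for the HD-ZIP III, HAM and TIR1/AFB families, chosen after their values were seen.

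The HD-ZIP III homeodomain leucine zipper factors set the upper side of lateral organs and pattern the vasculature and the shoot meristem, and their mRNAs are cleaved through miR165 and miR166. All 5 were raised. REV (AT5G60690, chr5:24396981-24402195, plus strand) had 30.6, 38.3 and 48.5 CPM in WT, 4241, 3870 and 4794 CPM in cer7-gabi and 4023 and 4199 CPM in cer7-sail. The cer7 libraries were close to each other and far from WT (log2 fold change 6.73, standard error 0.25, adjusted p = 4.41e-20, edgeR). PHB (AT2G34710) had 66.3, 33.5 and 52.9 CPM in WT and 4520, 4159, 5421, 5243 and 4662 CPM in cer7, a log2 fold change of 6.55. PHV (AT1G30490) had 86.7, 38.3 and 22.0 CPM in WT and 1489, 1522, 1530, 2253 and 1672 CPM in cer7, a log2 fold change of 5.12. ATHB-15 and HB-8, which act in the vasculature, reached 3.46 and 3.69. The family took 0.0147 to 0.0193% of the counts in WT and 0.761 to 0.972% in cer7.

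The HAM factors of the GRAS family maintain shoot meristems and are targets of miR171. Here only HAM1 (AT2G45160) was raised. It had the highest WT level of the group, 1015, 1674 and 767 CPM, and 3421, 3950, 3651, 4217 and 4390 CPM in cer7 (log2 fold change 1.77, standard error 0.20, adjusted p = 2.32e-08, edgeR). HAM2 had 493 to 679 CPM in WT and 830 to 1047 CPM in cer7, and although every cer7 library was above every WT library, its log2 fold change of 0.67 was under the threshold. HAM3 had 260 to 335 CPM in WT and 225 to 368 CPM in cer7, and the groups overlapped. The differences between the members were not tested.

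The auxin receptors of the TIR1/AFB group are targets of miR393, and none of the 4 was called. TIR1 had 71.4, 95.7 and 61.7 CPM in WT and 63.8 to 118 CPM in cer7, so that the groups overlapped. AFB2 had 306, 440 and 330 CPM in WT and 149 to 253 CPM in cer7, a log2 fold change of -0.79, and every cer7 library was below every WT library. AFB3 was at -0.46 and GRH1 at 0.92. The median of the group was -0.18, and it changed sign to 0.01 with scaling on uncalled genes. AFB2 and AFB3 are known in Arabidopsis to give rise to secondary siRNAs also in plants with a working exosome, and AFB3 had the highest WT level of the 4, 516 to 918 CPM.

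The mature miRNAs and the best-pairing sites in the spliced transcripts of these families are printed to show that members with the same or nearly the same site had different small RNA levels. They are written 5′ to 3′, with the miRNA seed (bases 2 to 8) and the opposite bases of the site in capitals, and come from RefSeq for TAIR10.1.
miR166a-3p: uCGGACCAggcuucauucccc
REV site, chr5:24398787-24398898, plus strand, across an intron: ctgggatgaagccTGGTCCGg
PHB site, chr2:14642530-14642666, minus strand, across an intron: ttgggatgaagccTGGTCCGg
HB-8 site, chr4:15866872-15866974, minus strand, across an intron: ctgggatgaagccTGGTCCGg
ATHB-15 site, chr1:19412976-19413085, minus strand, across an intron: ctggaatgaagccTGGTCCGg
miR171b-3p: uUGAGCCGugccaauaucacg
HAM1 site, chr2:18619131-18619151, minus strand: agggatattggcgCGGCTCAa
HAM2 site, chr3:22411547-22411567, minus strand: agggatattggcgCGGCTCAa
HAM3 site, chr4:58414-58434, minus strand: ggggatattggcgCGGCTCAa
miR393a-5p: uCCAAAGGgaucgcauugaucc
TIR1 site, chr3:23273727-23273748, minus strand: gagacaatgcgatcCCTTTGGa
AFB2 site, chr3:9870237-9870258, plus strand: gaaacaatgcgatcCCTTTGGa
AFB3 site, chr1:4369085-4369106, minus strand: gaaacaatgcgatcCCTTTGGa

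All of these sites lie in coding sequence. REV and HB-8 have the same 21 bases, and their log2 fold changes were 6.73 and 3.69. HAM1 and HAM2 have the same 21 bases, and their log2 fold changes were 1.77 and 0.67. The site sequence was therefore equal in pairs whose estimated changes differed. The pairs were picked after their values were seen, HB-8 had only 0, 1 and 3 counts in WT, and the differences between members were not tested.

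The other auxin response factors formed a graded set. ARF10, ARF16 and ARF17, repressing factors that miR160 targets, were all raised. No WT library reached 10 counts for any of them, so they could enter the test mainly through the mutant libraries. ARF10 (AT2G28350) had 25.5, 43.1 and 30.8 CPM in WT and 825, 729, 804, 1127 and 983 CPM in cer7 (log2 fold change 4.73, standard error 0.27, adjusted p = 5.65e-15, edgeR), and ARF16 and ARF17 reached 2.35 and 2.85. ARF6 and ARF8, activating factors of flower maturation and targets of miR167, were raised by 2.48 and 1.56 on the log2 scale. Of ARF2, ETT (ARF3) and ARF4, which are targets of tasiRNAs, only ETT was raised, by 1.24. The sites of miR160 are shown for ARF10, which changed most and pairs with 2 mismatches, and for ARF17, which pairs with 0 mismatches and 1 G:U pair.
miR160a-5p: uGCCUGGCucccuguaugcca
ARF10 site, chr2:12115741-12115761, plus strand: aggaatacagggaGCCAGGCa
ARF17 site, chr1:29274189-29274209, plus strand: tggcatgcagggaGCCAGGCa

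SPL factors, which promote the change from the juvenile to the adult phase and flowering, are targets of miR156. No member had more than 8 counts in a WT library, so that a member could be tested mainly where it was higher in mutants. The 7 of 11 members that were tested were raised, at a median of 2.78, and their levels in cer7 were at most 191 CPM, in SPL3. The 4 members that were not tested had 0 to 4 counts in the WT libraries and 2 to 12 in the cer7 libraries. SPL4 had 20.4, 0 and 4.41 CPM in WT and 38.2 to 85.1 CPM in cer7. SPL9 had 3 counts in all over the WT libraries, and its ratio of 8.88 has a counting interval of 2.91 to 44.2. Both SPL4 and SPL9 overlap an annotated miRNA gene, and whether reads of that gene add to their counts was not tested. The sites, shown for their place in the transcript, are the same in the coding sequence of SPL9 and SPL11, and that of SPL4 lies in the 3′ UTR.
miR156a-5p: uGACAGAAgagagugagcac
SPL9 site, chr2:17589066-17589085, plus strand: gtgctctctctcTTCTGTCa
SPL11 site, chr1:9503618-9503637, plus strand: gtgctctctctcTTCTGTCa
SPL4 site, chr1:19807090-19807109, plus strand: ctgctctctctcTTCTGTCa

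Further target families were raised in most tested members. TCP factors, which limit cell proliferation in leaves and petals and are targets of miR319, were raised in 4 of 5 members. TCP4 (AT3G15030) had 179, 187 and 106 CPM in WT and 995 to 1399 CPM in cer7, TCP2 and TCP3 reached log2 fold changes of 2.97 and 2.24, and TCP24 was at 1.25 and not called (adjusted p = 0.0286, edgeR). The boundary factors CUC1 and CUC2, targets of miR164, were the only 2 tested of 6 NAC genes and both were raised. MYB33 and MYB65, anther factors targeted by miR159, were raised by 2.57 and 2.46. No WT library reached 10 counts for CUC1, CUC2, MYB33 or MYB65. These genes could therefore enter the test mainly through the mutant libraries. AP2, the floral organ identity factor targeted by miR172, had 235, 244 and 216 CPM in WT and 946, 1701, 965, 1292 and 1132 CPM in cer7 (log2 fold change 2.38), and TOE2 was raised by 1.25. Of the growth-regulating factors targeted by miR396, GRF1, GRF3 and GRF9 were raised among 4 tested, of which only GRF3 reached 10 counts in a WT library. None of the 7 NF-YA genes, targets of miR169, had enough counts to be tested.

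Targets outside the transcription factors gave a mixed picture. PHO2, the ubiquitin conjugase that restrains phosphate uptake and a target of miR399, had 45.9, 71.8 and 52.9 CPM in WT and 704, 1018, 693, 648 and 838 CPM in cer7 (log2 fold change 3.77, standard error 0.30, adjusted p = 2.73e-11, edgeR). AGO1, the main slicer of plant miRNA complexes and a target of miR168, had 311, 335 and 273 CPM in WT and 1176, 1898, 1601, 1014 and 1816 CPM in cer7, a log2 fold change of 2.29. AGO2 and DCL1 were at -0.81 and 0.64 and not called. The copper/zinc superoxide dismutase CSD1 was raised by 2.70, whereas CSD2 was at 0.63 and not called.

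Genes for RNA decay and siRNA production were rarely measured. Of 20 such genes, chosen after the calls were seen, 4 were tested, and AGO1 was the only one raised. DCL4 was at -0.59 and the catalytic exosome ribonuclease gene AT2G17510 at -0.75, both not called, and RST1 was at 0.64. RDR6 had 4.41 to 23.9 CPM in WT and 4.25 to 19.1 CPM in cer7, and the groups overlapped.

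Histone genes were raised across all 5 types of histone, with 20 of 27 tested genes raised and 0 lower (median 2.40). In 23 of the 27 no WT library reached 10 counts, and of the other 4 genes 1 was raised, an H4 gene. Histone H4, which forms nucleosomes with H3, H2A and H2B, stood out. All 8 genes were raised, at a median of 7.67, or 7.31 with the gene that had no WT count set to its lower bound. AT3G53730 (chr3:19912385-19913515, minus strand) had 20.4, 38.3 and 52.9 CPM in WT, 313, 13867 and 1260 CPM in cer7-gabi and 28204 and 24333 CPM in cer7-sail. The libraries cer7-gabi 2 and both of cer7-sail were therefore far higher than cer7-gabi 1 and 3, which were themselves above all WT libraries. The joint share of the 8 genes showed the same order, with 0.00836 to 0.0163% in WT, 0.0814, 2.44 and 0.186% in cer7-gabi and 5.03 and 4.05% in cer7-sail. The split ran within an allele, and what set it was not tested. All 8 genes were also raised without cer7-gabi 1 and 3. These were the cer7 libraries lowest in H4, so leaving them out could not test the calls. When only the 8 libraries entered the edgeR fit, 0 were called (adjusted p = 0.0144 to 0.0873), and all 8 had an unadjusted p below 0.05. DESeq2 called all 8, and 5 were called without a filter on low counts. The 8 genes are close paralogs, so the assignment of reads to single members is uncertain.

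**Figure D3:**
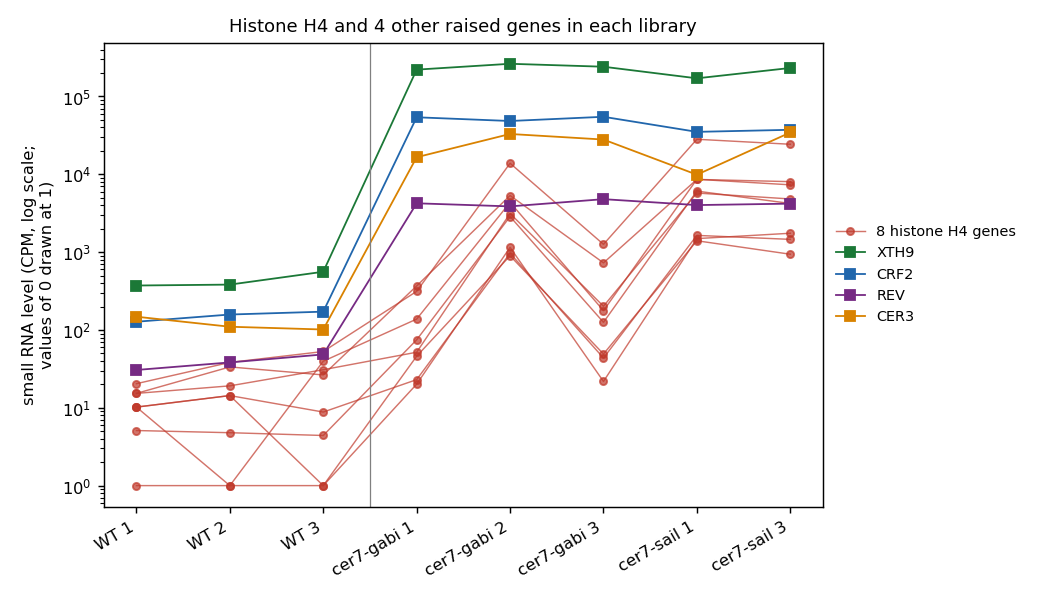
Small RNA level of the 8 histone H4 genes in each library, in CPM on a log scale, with 1 line per gene and values of 0 drawn at 1, beside XTH9, CRF2, REV and CER3. In cer7-gabi 2 and both cer7-sail libraries all 8 H4 genes were above their levels in cer7-gabi 1 and 3.

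The other histone types had medians of 1.52 to 2.40. Of the H3 genes, 4 of 8 were raised (median 2.01), AT1G09200, AT5G10390, AT5G10400 and AT5G65360, which encode the replication-dependent form H3.1. A further H3.1 gene, AT3G27360, was at 1.89 and not called. AT5G65360 had 20.4, 14.4 and 22.0 CPM in WT and 121, 136, 90.0, 92.5 and 80.8 CPM in cer7. The H3.3 genes AT4G40030, AT4G40040 and AT5G10980 were at 1.16, 0.01 and 0.83 and not called. Among H2A genes 4 of 5 were raised, among H2B genes 2 of 4, and both tested linker histone H1 genes. AT1G06760, an H1 gene, had 25.5, 38.3 and 30.8 CPM in WT and 106 to 213 CPM in cer7 (log2 fold change 2.38).

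The classes with the highest levels outside the histones were small. XTH enzymes cut and rejoin xyloglucan in growing walls, and 5 of 7 tested were raised. With at least 10 counts in a WT library there was 1 such gene, XTH9, and it was raised. Of the other 6, which could enter the test mainly through the mutant libraries, 4 were raised. XTH9 (AT4G03210, chr4:1415617-1417444, plus strand) had 372, 383 and 560 CPM in WT and 221308, 263241, 241243, 171161 and 232550 CPM in cer7. The groups did not overlap, and its log2 fold change of 9.01 was the highest of the family. XTH16 had 10.2, 0 and 8.81 CPM in WT and 326 to 547 CPM in cer7 (log2 fold change 6.08, standard error 0.57, adjusted p = 2.99e-09, edgeR). XTH24 had 1 WT count, and its ratio of 46.5 has a counting interval of 8.19 to 1853. Of the other wall proteins, 6 of 10 arabinogalactan proteins, 1 of 3 expansins and 2 of 9 cellulose synthases were raised. With at least 10 counts in a WT library, 3 of 3, 0 of 2 and 0 of 2 were raised.

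Of the 108 genes whose annotation names them as AP2/ERF or CRF, 4 were tested and raised, of which AP2 is a miR172 target and CRF10 also has a uORF. The related genes RAP2.7 and TOE3, which the annotation text did not put in this class, were tested with the miR172 targets and were at 0.86 and 1.77, not called. CRF2 (AT4G23750), a cytokinin response factor, had 128, 158 and 172 CPM in WT, 54060, 48417 and 54851 CPM in cer7-gabi and 35113 and 37320 CPM in cer7-sail. Its cer7-sail libraries were below the cer7-gabi libraries, but it was not among the genes called in the direct test of the alleles given at the end. CRF1 was raised by 4.24.

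Dehydrins and metallothioneins bind water or metal ions under stress. All 3 tested dehydrins and 4 of 5 metallothioneins were raised. With at least 10 counts in a WT library, 2 of 2 and 1 of 2 were raised. The dehydrin gene AT1G54410 had 184, 177 and 709 CPM in WT and 7823, 7488, 9865, 3923 and 11677 CPM in cer7 (log2 fold change 4.50, standard error 0.45, adjusted p = 4.65e-07, edgeR). WT 3 was the highest WT library and still below all cer7 libraries. MT2B had 76.5, 47.8 and 44.1 CPM in WT and 819 to 2229 CPM in cer7. MT1A, at 6.20, lies within AT1G07590, at 5.08, on the same strand, and reads of the shared stretch cannot be told apart. The glutaredoxin gene AT5G18600 had 10.2, 19.1 and 4.41 CPM in WT and 2717, 2249, 8194, 1292 and 4028 CPM in cer7.

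Genes with a conserved upstream open reading frame (uORF), which lets the cell adjust translation to metabolites such as sucrose or polyamines, were raised in 11 of 14 tested cases, at a median of 1.95. With at least 10 counts in a WT library there were 3 such genes, all raised. The main gene was SAMDC (AT3G02470), S-adenosylmethionine decarboxylase of polyamine synthesis. It had 209, 163 and 203 CPM in WT, 26985, 21317 and 51893 CPM in cer7-gabi and 15132 and 26804 CPM in cer7-sail (log2 fold change 7.21, standard error 0.90, adjusted p = 1.15e-05, edgeR). The unannotated identifier AT3G02468 had nearly the same values, so that the 2 are not independent. A second decarboxylase gene, AT5G15950, was raised by 5.22 from 0, 0 and 22.0 CPM. The sucrose-regulated factor bZIP2 had 25.5, 28.7 and 8.81 CPM in WT and 157 to 515 CPM in cer7, and SAC51, a factor of thermospermine signalling, was raised by 1.62. Without WT 2, 7 of these genes were called. Of the genes of S-adenosylmethionine metabolism, which share the decarboxylases with this list, 4 of 5 were raised.

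Genes of the translation machinery and chaperones were raised in part. Of the ribosomal protein genes 15 of 79 were raised (median 0.71) and 1 was lower, so that the raised share was near that of all genes. Of the translation factors 4 of 18 were raised, but 1 with library size only and 1 with only the 8 libraries in the fit. AT5G54940, a homologue of the initiation factor SUI1, was by far the highest with 81.6, 76.5 and 115 CPM in WT and 14641 to 18611 CPM in cer7. Of the HSP70 and HSP90 chaperones 7 of 12 were raised (median 1.40). HSP81-2 had 81.6, 33.5 and 44.1 CPM in WT and 325, 737, 534, 302 and 1361 CPM in cer7. Only 2 of 37 photosystem genes were raised, LHCB6 by 1.35 and PSBW by 1.34.

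Regulatory families without a miRNA site in the list were uneven. MYB and MYB-like genes were raised in 12 of 27 tested cases (median 1.59) and zinc finger genes in 19 of 63 (median 0.19). With at least 10 counts in a WT library, 1 of 9 and 4 of 36 were raised. AT3G51180, a CCCH zinc finger gene, had 10.2, 14.4 and 17.6 CPM in WT and 224 to 510 CPM in cer7, and AT4G17410, with a DWNN domain, had 44.1 to 57.4 CPM in WT and 974 to 1642 CPM in cer7. bHLH genes were raised in 4 of 13 cases and protein kinases in 11 of 75 (median 0.29). All 4 raised bHLH genes and all 11 raised kinase genes had under 10 counts in every WT library. The median of the zinc finger genes turned to -0.09 and that of the kinases to -0.02 with library size only.

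Several large families showed few calls. PPR genes and NB-LRR disease resistance genes are known as sources of secondary siRNAs in plants with an intact exosome. PPR, NB-LRR and F-box genes were raised in 1 of 19, 2 of 32 and 2 of 75 tested genes, with medians of -0.08, -0.13 and -0.36. The first and the second of these medians became 0.12 and 0.05 with scaling on uncalled genes. With at least 10 counts in a WT library, 0 of 16, 0 of 20 and 0 of 59 were raised. Over all genes with such counts the share was also low, 5.37%. Pectin enzymes had 3 raised and 4 lower of 36, defensin-like and related peptides 1 raised and 4 lower of 24, and transposon-derived proteins 1 raised and 3 lower of 31. Among the transposon-derived proteins the raised gene was AT5G43755, with 0, 0 and 8.81 CPM in WT and 118 to 277 CPM in cer7. Among pectin, defensin-like and transposon-derived genes with at least 10 counts in a WT library, 1 of 27, 0 of 21 and 0 of 28 were raised. Chloroplast-encoded genes had 0 raised and 4 lower of 77 and mitochondrion-encoded genes 0 raised and 0 lower of 40, with medians of -0.44 and -0.39 that stayed below 0 in all 4 scalings tried. At an unadjusted p below 0.05 in edgeR, 0 genes of either organelle were higher and 8 mitochondrial genes were lower, and DESeq2 called 0 higher in either and 0 mitochondrial genes lower. At least 10 counts in a WT library were found for 71 of the 77 chloroplast and 37 of the 40 mitochondrial genes.

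The wax genes were not raised as a class. CER3 (AT5G57800), needed for alkane synthesis, was the only one of 7 tested genes that was called. CER1, the partner of CER3, was at 0.20, KCS6 at 0.71, CER10 at -0.29, LACS1 at 0.89, CYP96A15 at 1.10 and the transporter gene ABCG11 at 0.16. Among the fatty acid elongation enzymes, KCS1 and KCS2 were raised by 2.61 and 1.73. Among 22 lipid transfer proteins (median -0.36), LTP6 and DIR1 were raised and EDA4 and AT4G08670 were lower, at -1.02 and -1.40. LTP6 had 66.3, 52.6 and 70.5 CPM in WT and 345 to 621 CPM in cer7.

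Outside all classes, 282 of 1624 tested genes were raised and 30 were lower (median 0.26). The gene RLP57, a receptor-like protein, had no count in WT and 46.0 to 71.6 CPM in cer7 and was at least 12.2-fold higher. In the same way GDU4, which is linked to amino acid export, was at least 11.03-fold higher, LAG1 of ceramide synthesis at least 8.22-fold and the acid phosphatase PAP6 at least 6.45-fold. These bounds are set by 3 counts over the WT libraries. GSTU20, a glutathione S-transferase, had 2 WT counts, and its ratio of 125 has a counting interval of 34.4 to 1032. The subtilisin-like protease gene AT2G39850 had 10.2, 33.5 and 8.81 CPM in WT and 1432, 1594, 2773, 1646 and 1995 CPM in cer7 (log2 fold change 6.72, standard error 0.45, adjusted p = 4.65e-11, edgeR).

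The median length of the annotated 5′ UTR was higher in raised genes than in others, although 26 raised genes had one under 50 nt and 31 one from 50 to 100 nt. The median length was 308 nt for raised genes (25th to 75th percentile 173 to 490 nt), 128 nt for tested genes that were not called, 50 nt for lower genes and 146 nt for all protein-coding genes in the table. The share of tested genes that were raised was 3.19% for a 5′ UTR under 50 nt, 16.9% from 100 to 200 nt, 29.9% from 300 to 500 nt and 44.9% from 500 nt on. Among transcripts of 1500 to 2500 nt the share went from 6.72% under 50 nt to 52.8% from 500 nt on. Among genes with at least 10 counts in a WT library it went from 0.709 to 28.6%, and among the others from 19.3 to 54.4%. In the absence of the miRNA target and uORF genes the medians were 293 nt for raised and 126.5 nt for uncalled genes. They were 315 and 294 nt for the genes raised in cer7-gabi and in cer7-sail. Classes differed here too, since raised SPL genes had a median of 881 nt and raised zinc finger genes 538 nt, but raised H4 and ribosomal protein genes 140 and 114 nt. Where no 5′ UTR is annotated (660 tested genes), 14 were raised and 24 were lower. These 660 genes lie in the group of 814 under 50 nt. The share of 3.19% and the medians of uncalled and lower genes therefore depend in part on missing annotation.

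**Figure D4:**
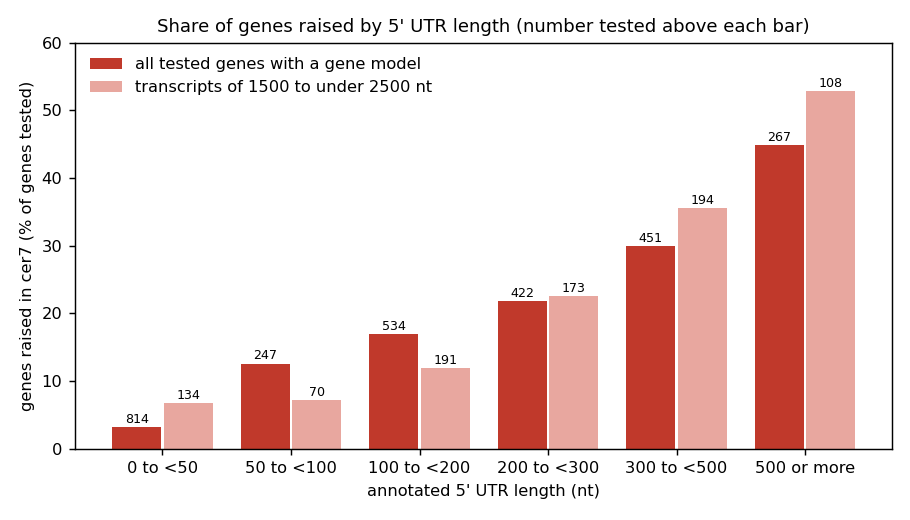
Percentage of tested genes raised in cer7 against the length of the annotated 5′ UTR in nt, for all genes with a gene model and for transcripts of 1500 to under 2500 nt, with the number of genes tested above each bar. The share climbs from 3.19 to 44.9% and from 6.72 to 52.8%.

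For the 3′ UTR the share was 3.07% under 50 nt, 17.2% from 100 to 200 nt and 22.3 to 26.3% above 200 nt, so it levelled off. Other features differed less. Median GC content was 41.7% in raised and 42.0% in uncalled genes, single-exon genes made up 22.7 and 20.2%, and a gene with an annotated neighbour on the opposite strand 24.1 and 19.5%. Raised genes were spread over the 5 nuclear chromosomes at 16.4 to 21.0% of the genes tested. The difference in 5′ UTR length varied with the mean small RNA level over the 8 libraries, which includes the cer7 libraries. The medians of raised and uncalled genes were 159 and 135 nt under 20 CPM, 306.5 and 181 nt from 20 to 50 CPM, 318 and 123.5 nt from 50 to 100 CPM, 313 and 36.5 nt from 100 to 200 CPM and 289 and 7.5 nt from 200 to 1000 CPM. Genes with at least 10 counts in a WT library had medians of 348 and 77 nt, and the others 301.5 and 225 nt.

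The lower genes formed no comparable set. HAK5, a high-affinity potassium transporter, had 2393, 2157 and 2357 CPM in WT and 270, 220, 207, 270 and 285 CPM in cer7 (log2 fold change -3.20, standard error 0.15, adjusted p = 5.99e-17, edgeR). AT5G46930, a gene of the invertase and pectin methylesterase inhibitor family, had 138, 167 and 185 CPM in WT and 20.1, 5.12, 24.5, 8.05 and 17.02 CPM in cer7, a log2 fold change of -3.40. AT4G05470, annotated as RNI-like, had 505, 617 and 529 CPM in WT and 164, 141, 125, 157 and 93.6 CPM in cer7, at -2.01. In these 3 genes the groups were far apart and the alleles alike. They were also the only 3 of the 67 that were called in all 22 alternatives. The thionin-family gene AT1G58242 was at -1.57.

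**Figure D5:**
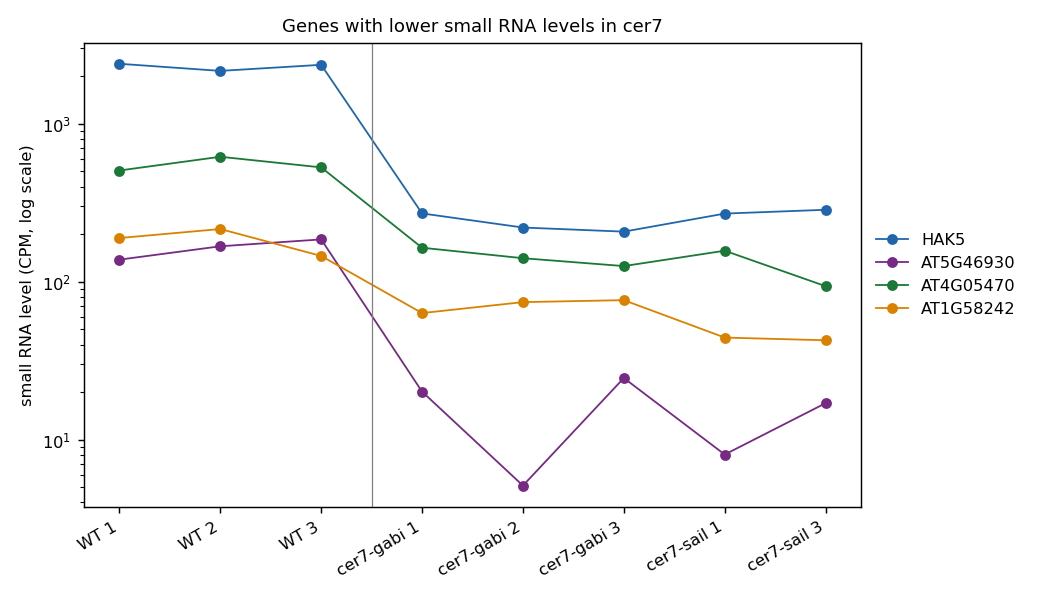
Small RNA level of HAK5, AT5G46930, AT4G05470 and AT1G58242 in each of the 8 libraries, in CPM on a log scale, with 1 line per gene. All 5 cer7 libraries lie below all 3 WT libraries for each gene.

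Of the 15 lower genes with the smallest adjusted p-values and groups that did not overlap, 10 lay between -1.01 and -1.14. Proteins of unknown function made up 12 of the 67, and of 412 such genes tested 44 were raised. AT4G14810, which overlaps the miRNA gene MIR780 on the opposite strand, had the highest level of all lower genes, with 160409, 164213 and 179247 CPM in WT and 99523, 65692, 97560, 87952 and 58806 CPM in cer7 (log2 fold change -1.04). Its share of the counts was 14.9 to 17.9% in WT and 4.50 to 7.83% in cer7. The count of lower genes went from 67 to 41 without WT 2, to 117 without WT 3 and to 107 without cer7-sail 3. Nor was direction independent of level, since genes with a mean of 20 to 50 CPM had a median log2 fold change of 0.54 and those of 200 to 1000 CPM one of -0.43.

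The libraries of cer7 were similar for most raised genes. The test that selected these genes favours a small spread between libraries, so this similarity follows in part from the selection. The ratio of the highest to the lowest cer7 library had a median of 2.09 over the 510 genes (25th to 75th percentile 1.70 to 2.74). It exceeded 10 in 11 genes, the 8 H4 genes, AT5G44770, MT1C and AT5G22090. A direct test of cer7-gabi against cer7-sail called 10 of the 2916 genes (0.343%), and of these only AT5G44770 was also called against WT. It had 0, 4.78 and 4.41 CPM in WT, 299, 340 and 518 CPM in cer7-gabi and 60.4 and 21.3 CPM in cer7-sail. The other 9 were not raised or lower in cer7 as a whole. AT5G40020, a thaumatin family gene, had no count in WT or cer7-gabi and 84.5 and 76.6 CPM in cer7-sail, and AT4G08485, a defensin-like gene, had 196 to 245 CPM in WT, 84.5 to 171 CPM in cer7-gabi and no count in cer7-sail.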

How the data were processed

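The authors counted small RNAs of 21 and 22 nt on the genes of TAIR10. What they deposited are raw counts for each gene and library, neither normalized nor pooled. Reads were trimmed with cutadapt 1.18 and aligned without mismatches in the unique mode of ShortStack. The counting tool and the use of strand are not given in the sources used here, so counts of paralogs and of overlapping or antisense genes are uncertain. All columns were read, and 0 columns were left out.

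The low-count filter was filterByExpr with a minimum count of 10 and a minimum total of 15, over 20 libraries in 4 groups. Counts were normalized by TMM and tested with glmQLFit and glmQLFTest of edgeR 4.0.16 in R 4.3.3 for cer7 against WT, with Benjamini-Hochberg adjustment over the 2916 genes. The test was checked on simulated counts with 200 changed genes, as many up as down. That check does not cover the uneven directions found here or the choice of scaling. CPM values are relative to the TMM-scaled total of a library. Shares are of the total counts of a library. P-values set the difference between cer7 and WT against the spread between libraries, which was estimated over all 20 libraries. Folds against a WT without counts are lower bounds from 3 counts over the WT libraries, and for 1 to 3 WT counts the ratio is given with its exact 95% interval, which covers counting error only. Replicate libraries differed by more than counting noise, and each was counted as 1.

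Names and gene models came from RefSeq for TAIR10.1, which matched 26718 of 27415 identifiers. Classes were set by annotation text or locus and described by counts and medians, with no test. Members, lists and classes were chosen with earlier results of these data known. Named were up to 3 called members with the largest change in each class, the 10 genes outside the classes with the largest increase and non-overlapping groups, the 15 lower genes with the smallest adjusted p and non-overlapping groups, CER7 and CER3. Uncalled family members, the RNA decay genes and genes that differ between alleles or libraries were named after their values were seen. The division of tested genes by WT counts was also made after the data were seen. Alternatives changed the threshold, test, normalization, filter, alleles, libraries and the replicate block. DESeq2 1.42.0 was one of them.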

Additional observations from a re-analysis of the deposited data

Results flagged for a closer look

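Of 209 gene levels and class shares screened among the 5 cer7 libraries, 9 had 1 library far from the others, beyond a critical ratio of the gap to the range of 0.71. Chance gives about 1 in 20. The library cer7-sail 1 was the highest for PHV (AT1G30490, ratio 0.761, with 2253 CPM beside 1489 to 1672 CPM), for the share of the ribosomal proteins (0.779, with 0.830% beside 0.393 to 0.490%) and for the share of the lipid transfer proteins (0.734, with 0.293% beside 0.177 to 0.208%). It was the lowest for AT3G44210 (0.723, with 64.4 CPM beside 101 to 115 CPM). The library cer7-sail 3 was the highest for MT2B (AT5G02380, 0.750, with 2229 CPM beside 819 to 1172 CPM) and for the histone H3 gene AT5G10400 (0.740, with 157 CPM beside 51.8 to 79.3 CPM), and the lowest for GRF9 (AT2G45480, 0.781, with 21.3 CPM beside 51.8 to 60.4 CPM). The library cer7-gabi 3 was the highest for the resistance gene AT1G59218 (0.831, with 65.4 CPM beside 29.8 to 35.8 CPM) and cer7-gabi 2 for the pectin lyase-like gene AT4G24780 (0.902, with 97.2 CPM beside 46.8 to 51.8 CPM). The 2 alleles differed in 10 genes by the direct test.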

How the results depend on the processing

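The number of raised genes was 336 with only the 8 libraries in the fit and 259 with glmTreat, a test of a change beyond the threshold, and 366 to 502 when 1 library was left out. It stayed within 1.5 times of 510 under the other alternatives, among them 455 with DESeq2 and 453 and 383 with 1 allele only. The number of lower genes was 262 with library size only, 37 without a filter, 3 with glmTreat, 32 and 125 with only cer7-gabi and only cer7-sail, and 18 with TMM on uncalled genes. It was 41 to 117 when 1 library was left out. The cause of these shifts was not tested. TMM on uncalled genes, leaving out organelle genes or the 2 libraries low in H4, and counting identical identifiers once were chosen after seeing the data. Libraries of WT and cer7 with equal replicate numbers had correlations of 0.011 to 0.089 in their deviations, and those of the 2 alleles 0.220 and 0.154. All were positive, and WT and cer7-gabi libraries with unequal numbers had correlations of -0.061 to -0.031. Deviations from a group mean are not independent of each other, and those of the 2 cer7-sail libraries are mirror images. No correlation with WT exceeded 0.1, and the numbers were not taken as pairs. With the replicate block 516 genes were raised and 65 lower. Histone calls fell to 9 with only the 8 libraries in the fit and 12 with glmTreat. Chaperone calls fell to 4 under both. With glmTreat 7 ribosomal protein, 6 uORF and 7 kinase genes were called. With cer7-sail only, 7 uORF genes were called. The miRNA target calls moved by less than 1.5 times. Of 145 tested genes named by the rule, 82 kept their call in every alternative that tested them, and none changed sign. An alternative in which a gene was not tested was not counted against it. Counts under about 10 per library limit what could be tested, since 2916 of 27415 genes passed the filter.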
